A study of Caenorhabditis elegans with 2 samples.

Results

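The 742 NHR-25 ChIP-seq peaks described here had their summits between the 5′ ends of neighbouring protein-coding genes that are transcribed away from each other, called divergent pairs below. They were taken from the 5017 peaks that the authors kept after thresholding on the irreproducible discovery rate (IDR) on the ce11 assembly, and made up 14.8% of them (exact binomial 95% interval 13.8 to 15.8%, counting error only). A peak was a member when its summit, the highest point the authors gave for the region, lay between the annotated 5′ ends of a divergent pair and at most 2000 bp upstream of both. Of the other peaks, 2009 had their summit at most 2000 bp upstream of a protein-coding 5′ end without meeting this rule, and 2266 did not; these are called other upstream peaks and remaining peaks.

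The study mapped the DNA sites of the nuclear hormone receptor NHR-25 by chromatin immunoprecipitation and sequencing in whole Caenorhabditis elegans larvae of the L3 stage. All worms were of strain OP33, unc-119(ed3) III; wgIs33, in which a transgene gives stable expression of NHR-25 with GFP-FLAG at its C terminus, and males and females were pooled. There was 1 group, of 2 samples labelled as biological replicates 1 and 2, with no second genotype, treatment or time. Chromatin was sonicated, the antibody field names nhr-25, and peaks of different cell types of the whole worm cannot be told apart. The tagged protein comes from an inserted transgene. Sites of the fusion protein and of any untagged receptor cannot be told apart here, and whether they differ was not tested. Nothing beyond the replicate labels says how the samples were grown, so the spread between them may be partly technical. Peaks are not replicates, and shares and medians below are therefore descriptions, given for the IDR list and for each replicate, without a test.

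In the compact genome of this worm many genes start close to a neighbour on the opposite strand, so that a single stretch of upstream DNA borders both. NHR-25 is the worm member of the SF-1/FTZ-F1 family, whose receptors bind DNA as monomers at an extended half-site with the core CAAGGTC or CAAGGCC, and it is known for its part in epidermal development and molting. Many worm transcripts are trans-spliced to a leader, so an annotated 5′ end can lie downstream of the true start of transcription.

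Sequences are given 5′ to 3′ on the + strand of the RefSeq WBcel235 genome, which is the ce11 assembly. The first set shows 101 bp centred on the summits of the 6 strongest member peaks, because these are the sites with the most signal. Capitals mark, on either strand, the half-site core or 1 of 3 other words counted below (CTGCGTC, then the purine repeat GAGAGAG, then GGGCGG). The regions are chrII:8561392-8561492 (iff-2/F54C9.14), chrX:5841245-5841345 (dct-11/puf-9), chrIII:10759212-10759312 (K01G5.10/tasp-1), chrIII:4899898-4899998 (nhl-2/tag-340), chrV:10897315-10897415 (sec-61.G/F32D8.7) and chrIII:13643688-13643788 (drr-2/set-16). The gene named first is on the − strand and the gene named second on the + strand.
iff-2/F54C9.14: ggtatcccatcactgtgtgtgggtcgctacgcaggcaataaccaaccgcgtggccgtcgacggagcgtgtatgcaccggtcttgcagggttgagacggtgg
dct-11/puf-9: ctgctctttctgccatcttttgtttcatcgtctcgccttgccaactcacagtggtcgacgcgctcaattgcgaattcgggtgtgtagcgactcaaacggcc
K01G5.10/tasp-1: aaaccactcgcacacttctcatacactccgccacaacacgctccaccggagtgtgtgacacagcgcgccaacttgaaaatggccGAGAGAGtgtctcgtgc
nhl-2/tag-340: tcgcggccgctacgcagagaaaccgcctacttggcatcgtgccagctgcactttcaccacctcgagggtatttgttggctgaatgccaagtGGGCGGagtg
sec-61.G/F32D8.7: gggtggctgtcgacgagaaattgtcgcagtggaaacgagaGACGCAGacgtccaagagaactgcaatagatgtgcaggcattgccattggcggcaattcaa
drr-2/set-16: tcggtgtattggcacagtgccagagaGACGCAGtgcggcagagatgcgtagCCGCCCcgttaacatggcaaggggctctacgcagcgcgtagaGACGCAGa

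None of these 6 windows held the half-site core. CTGCGTC stood in those of sec-61.G/F32D8.7 and drr-2/set-16, read on the strand opposite to that shown. The second set shows everything between the 5′ ends of the 2 pairs with the strongest peaks among those up to 200 bp apart, so that the whole shared upstream DNA can be read at once. These are chrV:10965540-10965718 between ctf-4 and eef-1G (179 bp, summit at base 152) and chrIV:8432894-8433037 between T26A8.4 and pdtf-1 (144 bp, summit at base 68). Capitals mark the same words.
ctf-4/eef-1G: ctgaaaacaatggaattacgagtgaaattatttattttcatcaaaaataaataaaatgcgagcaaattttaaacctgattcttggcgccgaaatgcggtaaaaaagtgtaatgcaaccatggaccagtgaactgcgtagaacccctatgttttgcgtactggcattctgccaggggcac
T26A8.4/pdtf-1: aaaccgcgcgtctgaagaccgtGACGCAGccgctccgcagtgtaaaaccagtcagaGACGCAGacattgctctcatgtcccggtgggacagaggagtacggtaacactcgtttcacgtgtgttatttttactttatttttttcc

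Of these 2 only T26A8.4/pdtf-1 held a marked word, CTGCGTC, at 2 places on the reverse strand. The third set shows 100 bp to each side of the 2 member summits with the extended half-site TCAAGGTCA, at chrV:8607470-8607670 (vps-60/smk-1) and chrV:18637647-18637847 (egas-3/col-42). Capitals mark its core.
vps-60/smk-1: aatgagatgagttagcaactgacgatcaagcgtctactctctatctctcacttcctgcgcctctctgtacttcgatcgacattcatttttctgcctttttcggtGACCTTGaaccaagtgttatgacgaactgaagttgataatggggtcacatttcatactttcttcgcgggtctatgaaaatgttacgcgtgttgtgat
egas-3/col-42: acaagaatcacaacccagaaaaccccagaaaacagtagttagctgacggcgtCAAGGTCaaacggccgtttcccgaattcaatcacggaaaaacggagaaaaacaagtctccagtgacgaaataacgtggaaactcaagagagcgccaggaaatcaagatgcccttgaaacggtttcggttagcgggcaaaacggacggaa

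The last set shows the whole sequence between the genes of 2 histone pairs, chrV:16040516-16040807 (his-4/his-3, 292 bp, summit at base 120) and chrIV:7487993-7488248 (his-60/his-59, 256 bp, summit at base 112). Capitals mark the longest run of bases that both share, which is described with the histone genes.
his-4/his-3: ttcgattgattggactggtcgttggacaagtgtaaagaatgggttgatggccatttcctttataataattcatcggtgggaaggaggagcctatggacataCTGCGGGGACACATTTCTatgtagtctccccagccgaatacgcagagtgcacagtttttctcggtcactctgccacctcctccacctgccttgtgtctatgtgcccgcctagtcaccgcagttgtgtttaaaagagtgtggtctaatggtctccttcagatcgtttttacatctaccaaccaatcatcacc
his-60/his-59: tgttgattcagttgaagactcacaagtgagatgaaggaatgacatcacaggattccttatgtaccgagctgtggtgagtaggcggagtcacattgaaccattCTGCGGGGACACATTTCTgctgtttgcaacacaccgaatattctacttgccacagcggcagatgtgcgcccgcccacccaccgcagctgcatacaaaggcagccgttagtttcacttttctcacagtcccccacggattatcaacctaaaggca

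Most divergent pairs that could hold a member peak held none. Protein-coding genes of the nuclear genome formed 3368 divergent pairs with 1 to 4000 bp between their 5′ ends, which are the pairs in which the rule can be met, and 706 of them held a peak (21.0%, exact 95% interval 19.6 to 22.4%). The 5017 regions of highest signal in replicate 1 gave 20.5% and those of replicate 2 gave 20.1%. Of all 19973 protein-coding genes on the nuclear chromosomes, 3528 (17.7%) had a summit of the list at most 2000 bp upstream. That share is per gene, by a looser rule, and includes the genes of the eligible pairs, so it is not on the footing of the 21.0%. Of the 13237 genes outside eligible pairs, 1832 (13.8%) had such a summit. A single summit lay in 672 of the 706 pairs, 32 pairs held 2 summits and 2 pairs held 3. Of the 2662 pairs with no IDR peak, 696 (26.1%) had some region of the authors' pooled list with its summit between the genes, below the IDR threshold, and 1966 had none.

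The share differed with how far apart the genes were, and was highest in pairs over 200 and up to 500 bp apart. Peaks were present in 31 of 248 pairs (12.5%) with up to 200 bp between the 5′ ends and in 225 of 668 pairs (33.7%) with more than 200 and up to 500 bp. Farther apart, the share was 24.8% up to 1000 bp, 21.1% from there to 2000 bp and 9.03% from there to 4000 bp. Replicates 1 and 2 alone gave 12.9% and 11.3% for the closest pairs, 32.9% and 30.5% for the next class and 8.91% and 9.28% for the widest, so the differences between these classes were larger than those between the replicates. The widest pairs are limited by the rule, since only part of the sequence between them lies within 2000 bp of both ends. The closest pairs are limited by width, since a summit had to fall within a short stretch; counting any peak whose region overlapped the sequence between the genes, at any distance, 19.4% of the closest pairs had one. By that count the widest pairs were no longer the lowest: they had one in 26.4% of cases, beside 35.6%, 25.7% and 22.5% in the 3 classes between.

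**Figure D1:**
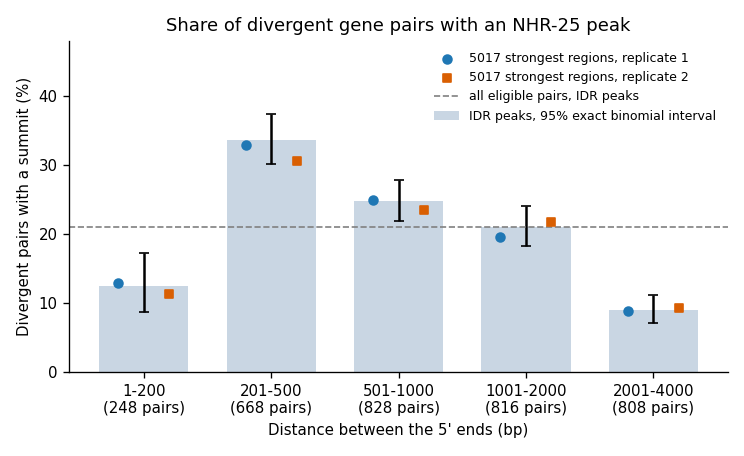
Share of eligible divergent gene pairs with an NHR-25 summit (%) by the distance between their 5′ ends (bp); bars are IDR peaks with exact binomial 95% intervals, points are the 5017 strongest regions of each replicate, the dashed line is the share of all pairs. The class up to 500 bp stands highest at 33.7% and the class up to 4000 bp lowest at 9.03%, and both replicates lie near the bars.

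Summits were packed more densely in the DNA between divergent genes than in other upstream DNA. The eligible sequence amounted to 2.94 Mb, 2.93% of the nuclear genome, and carried 253 summits per Mb. Other sequence within 2000 bp upstream of a coding gene carried 65.3 per Mb, or 101 per Mb once the bodies of protein-coding genes were left out, and the whole nuclear genome 50.03 per Mb. Against upstream sequence outside coding genes the density was 2.51-fold higher, with ratios of 2.53 in replicate 1 and 2.48 in replicate 2. In these ratios coding gene bodies were left out of the other sequence only, and kept in the divergent sequence. Each base between a divergent pair lies upstream of 2 genes at once, and sequence far from any start makes up more of the other upstream DNA, so densities were also compared at equal distance from the nearest 5′ end. For that comparison coding gene bodies were left out of both.

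At equal distance the ratio of the 2 densities was highest next to the 5′ end, and their difference at 151 to 200 bp. In the first 50 bp upstream of the nearest 5′ end the density was 427 summits per Mb between divergent genes and 124 in other upstream sequence, both outside coding genes. It was highest between divergent genes at 151 to 200 bp, at 561 per Mb (535 in replicate 1, 545 in replicate 2), against 232 per Mb elsewhere (222 and 226). At 301 to 400 bp the densities were 218 and 136 per Mb. Beyond 500 and up to 750 bp they were 76.2 and 66.2 per Mb, and at 751 to 1000 bp 55.7 and 72.6. Beyond 1000 and up to 2000 bp they were 86.6 and 70.3 per Mb, with 97.8 and 70.8 in replicate 2 and 95.02 and 65.5 in replicate 1, so beyond 500 bp the order of the densities changed with distance.

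**Figure D2:**
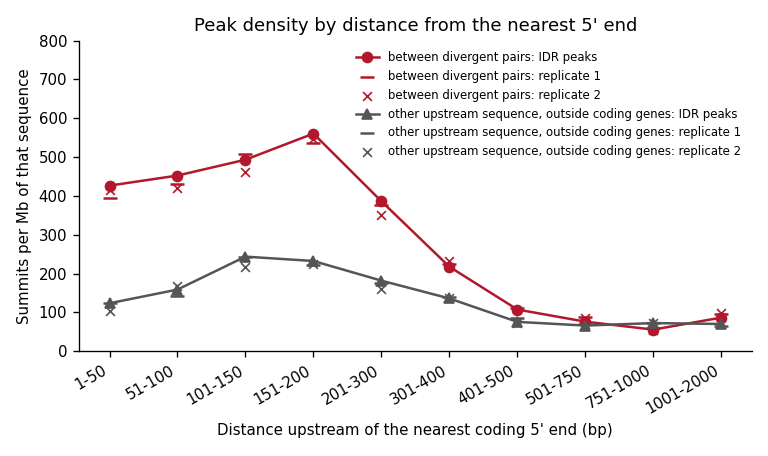
Summits per Mb of sequence against distance upstream of the nearest protein-coding 5′ end (bp), between divergent pairs (red) and in other upstream sequence (grey), both outside coding genes. Lines are IDR peaks, dashes and crosses the 5017 strongest regions of replicates 1 and 2. The red line peaks at 561 per Mb at 151 to 200 bp, and the lines lie close together and cross beyond 500 bp.

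Summits lay close to a 5′ end but favoured neither strand. The median distance to the nearer 5′ end was 169.5 bp, 59.4% of the members were within 200 bp of it and 89.2% within 500 bp, and 364 members were within 500 bp of both genes. These shares are partly set by the rule. In a pair up to 1000 bp apart no summit can lie over 500 bp from the nearer 5′ end. The densities above take the available sequence into account. The nearer gene was on the − strand for 369 members and on the + strand for 373. In pairs over 200 and up to 500 bp apart, 108 of 226 summits (47.8%) lay in the central part, from 33.3 to 66.7% of the way between the 5′ ends. That share was 41.7% in pairs up to 1000 bp apart and 17.9% in those up to 2000 bp apart, where summits lay nearer 1 gene or the other. It was 38.7% in the closest pairs, and 57.7% in the widest, where the rule leaves out sequence next to either gene once the pair is over 2000 bp apart. Only 13 members lay inside the body of another protein-coding gene and 68 inside an annotated non-coding gene (9.16%, against 9.71% of all other peaks).

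Peaks next to the 2000 bp limit were of mixed height. Just inside it were the summits of C47E8.4/C47E8.11 (1991 bp from the farther 5′ end, signal 46.96), apy-1/pcyt-1 (1987 bp, 54.98) and F44F4.3/ptr-8 (1963 bp, 102.6). Just outside were those of D2021.4/dhhc-14 (2002 bp, signal 243.2), F26H9.5/uggt-2 (2016 bp, 71.5) and clec-113/hmg-6 (2032 bp, 71.6).

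Member peaks were taller than the others in both replicates, with broad overlap. The signal is the height the authors gave to each region, on a scale not given in the sources used here. Over the members the pooled signal ranged from 42.3 to 919.6 with a median of 85.6, against medians of 74.3 for other upstream peaks and 70.7 for remaining peaks. In replicate 1 the medians were 40.4, 37.6 and 36.1, and in replicate 2 they were 46.1, 40.7 and 38.9, so the order was the same in both. The interquartile range of the members, from 60.3 to 136.0, overlapped that of the other upstream peaks, from 54.9 to 112.8. Members made up 5 of the 10 strongest peaks of the list, 18 of the 50 strongest and 29 of the 100 strongest. In successive groups of 1004 or 1003 peaks from the strongest to the weakest, their share was 21.1%, 15.2%, 14.5%, 12.6% and 10.6%.

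Member peaks were also found more evenly by both samples. Of the 742 members, 582 (78.4%, exact 95% interval 75.3 to 81.3%) had a summit within 100 bp among the 5017 strongest regions of both replicates, against 69.6% of other upstream peaks and 66.4% of remaining peaks. Another 83 were among those of replicate 1 only, 72 among those of replicate 2 only and 5 in neither. The share moved with height: with the members divided by signal into 248 strong, 247 middle and 247 weak peaks, it was 99.6%, 91.1% and 44.5%. For the 719 members matched anywhere in both replicate lists, Spearman's rho between the replicate signals was 0.714, beside 0.635 for other upstream peaks and 0.588 for remaining peaks. These coefficients run over peaks of the same 2 libraries, which are no independent replicates.

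**Figure D3:**
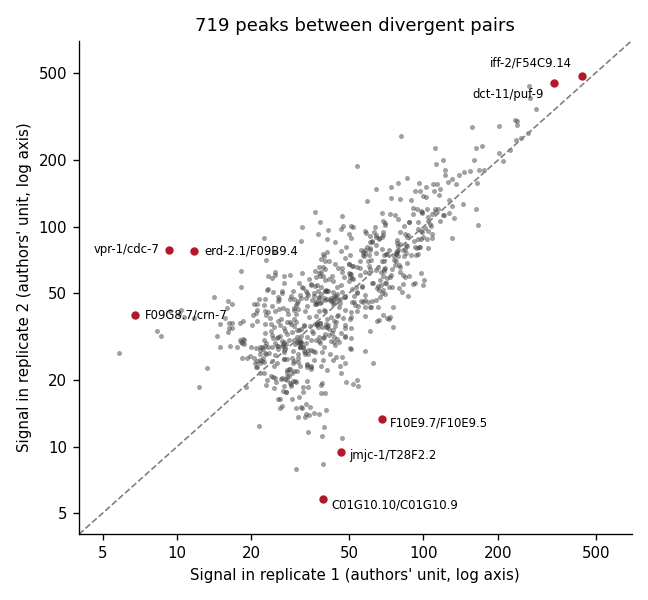
Signal of 719 member peaks in replicate 1 (horizontal) and replicate 2 (vertical), in the authors' unit, both axes logarithmic; each point is a peak and the dashed line marks equal signal. iff-2/F54C9.14 is the highest in both, and the 3 peaks farthest above and below the line are named.

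The strongest member peak, and the strongest of the whole list, lay 75 bp upstream of iff-2, a gene for the translation factor eIF5A, and 860 bp upstream of F54C9.14. Its signal was 438.7 in replicate 1 and 483.1 in replicate 2, first in both. Next came the peak 297 bp upstream of puf-9, which encodes an RNA-binding protein of the Pumilio family, and 1517 bp upstream of dct-11, with 337.5 and 451.2. The third strongest, between K01G5.10 and tasp-1, a gene of the taspase family of proteases, gave 267.3 and 434.6. The first and the third of these summits lie next to 1 gene of the pair, and the second lies inside an annotated non-coding gene.

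The other 7 of the 10 strongest peaks ranged in replicate 1 from 203.2 to 286.2. nhl-2, which encodes a TRIM-NHL cofactor of microRNAs, shared with tag-340 a summit of signal 269.6 in replicate 1 and 382.7 in replicate 2. sec-61.G, a subunit of the translocon of the endoplasmic reticulum, shared one with F32D8.7 at 286.2 and 342.8. drr-2 and set-16, a gene for a histone methyltransferase of the MLL type, are 345 bp apart and had a summit near the middle, 168 and 178 bp from the 5′ ends, at 240.3 and 301.7. The other 4 pairs were ifet-1/rps-1 (234.7 and 303.5), rpl-15/K11H12.8 (266.5 and 265.9), ska-3/rps-12 (239.6 and 290.2) and larp-1/wip-1 (203.2 and 286.2). ifet-1 and larp-1 encode regulators of translation, and rps-1, rpl-15 and rps-12 encode ribosomal proteins. The signal of replicate 2 was the higher in 9 of these 10 pairs, as it was at the median of all members (log2 ratio 0.10, SD 0.69 over peaks).

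The strongest peaks of the closest and the widest pairs were lower than those 10. Among the closest pairs these were ctf-4/eef-1G (203.1 in replicate 1 and 216.1 in replicate 2), where eef-1G encodes elongation factor 1 gamma, and T26A8.4/pdtf-1 (172.3 and 231.9). Among the widest they were T23F11.6/ppm-2 (112.4 and 192.2), inside a non-coding gene, and twk-30/F36A2.7 (163.5 and 120.3), where twk-30 encodes a potassium channel of the TWIK family.

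The summits of pairs with several of them differed in height and in how alike the replicates were. Between sft-4, which encodes a cargo receptor of the secretory pathway, and gakh-1, 3 summits had signals of 36.4, 38.7 and 26.7 in replicate 1 and 53.8, 11.2 and 51.2 in replicate 2, in the order of their distance from sft-4. Between his-72, a gene for histone H3.3, and rpt-6, a proteasome ATPase, 3 summits had pooled signals of 65.6, 58.8 and 46.7, and the first of them was unmatched in replicate 1. hsp-3, which encodes a BiP chaperone, and C15H9.5 had 2 summits of pooled signal 341.6 and 75.4, and that 40 bp from hsp-3 differed between the samples, with 80.7 in replicate 1 and 259.0 in replicate 2.

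The largest differences between the samples were in peaks of middling or low pooled signal. The peak of vpr-1/cdc-7 had a signal of 9.27 in replicate 1 and 78.5 in replicate 2 (log2 ratio 3.08), that of erd-2.1/F09B9.4 had 11.8 and 77.7 (2.72) and that of F09G8.7/crn-7 had 6.73 and 39.7 (2.56). In the other direction, C01G10.10/C01G10.9 had 39.0 and 5.80 (−2.75), F10E9.7/F10E9.5 had 67.7 and 13.3 (−2.35) and jmjc-1/T28F2.2 had 46.4 and 9.46 (−2.29). The SD of this log2 ratio over all matched members was 0.69. These 6 were picked as the extremes of that ratio, so their distance from the rest follows from the choice.

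Chromosomes differed in how many of their divergent pairs were bound. The share of pairs with a peak was 29.1% on I and 29.4% on III, 18.1% on II, 18.2% on IV, 15.3% on V and 20.4% on X. Replicate 1 gave 27.9% on I, 29.98% on III and 14.8% on V, and replicate 2 gave 28.5%, 26.1% and 13.7%. On X the members were a small part of the peaks, 73 of 1085 (6.73%), against 14.5 to 19.7% on the autosomes. X also had the fewest eligible pairs, 329, with the widest median separation, 1915 bp, and the part of that separation in the low share was not tested.

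The receptor's own half-site was less frequent at member summits than at other peaks, though more frequent than in upstream DNA at large. The core CAAGGTC or CAAGGCC, searched on both strands within 100 bp of the summit, was present at 29 of 742 members (3.91%, exact 95% interval 2.63 to 5.57%) and at 312 of 4275 other peaks (7.30%, 6.54 to 8.12%). It stood in 3.27% of the top members of replicate 1 and 3.78% of those of replicate 2. In windows of the same length centred 1000 bp to the left and right of the members it stood in 2.29% and 1.21%. Windows of that length upstream of all 19973 genes held it in 1.42%, and the midpoints of divergent pairs without a peak in 1.35%. The members are richer in G and C than these windows, with medians of 41.3% against 32.8%, and the part of base composition in the difference was not tested; other upstream peaks had 41.8%, close to the members.

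Members with a half-site had a lower median signal, 62.97, against 86.7 for members without it. Of the 50 strongest members 1 carried it, beside 3.91% of all members. It was present in 2.82% of the strong members (exact 95% interval 1.14 to 5.73%) and 2.83% of the middle ones (1.15 to 5.75%). Among the weak ones it was present in 6.07% (3.44 to 9.82%), and the 3 intervals overlap. The 29 peaks held 30 occurrences, 15 of CAAGGTC and 15 of CAAGGCC, of which 19 had their centre within 50 bp of the summit, and 18 read toward the nearer gene. The tallest peak with a half-site was that of eef-1A.1/rfc-4 (154.5 in replicate 1 and 179.7 in replicate 2), where eef-1A.1 encodes elongation factor 1 alpha. The extended form TCAAGGTCA stood at 2 members (0.27%), shown above: vps-60/smk-1 with 84.2 and 92.2, and egas-3/col-42 with 22.6 and 21.7. It stood at 1.08% of other peaks.

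Other short words were more frequent at member summits than the half-site. CTGCGTC was present within 100 bp of 100 members (13.5%, exact 95% interval 11.1 to 16.1%), beside 13.1% of other peaks, 3.25% of the windows upstream of all genes and 1.39% of the midpoints of pairs without a peak. It stood in 12.5% and 13.6% of the top members of replicates 1 and 2, and in 1.75% and 2.56% of the flanks. The median signal of members with it was 90.99, and 85.0 for those without. GAGAGAG was present at 13.3% of members and 18.4% of other peaks, against 5.16% of upstream windows and 2.82% of the midpoints without a peak. GGGCGG was present at 10.6% of members, 8.47% of other peaks and 6.01% of upstream windows.

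Words made largely of A and T were scarcer at member summits than in windows upstream of all genes. A run of 8 T or A, TTTTTTTT on either strand, stood at 12.4% of members and 11.9% of other peaks, against 26.4% of upstream windows. AGATAA, the core of GATA factor sites, stood at 9.43% of members, 14.9% of other peaks and 15.9% of upstream windows. CACGTG, an E-box and not a word of this kind, stood at 4.85%, 8.14% and 4.23%, so it was scarcer than at other peaks but not than in upstream windows. A word in a window is a match of letters only, and these shares move with base composition, whose part was not tested.

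Genes for the machinery that every cell uses carried member peaks far more often than the background of divergent pairs. The counts below are of genes in eligible divergent pairs, of which 21.0% overall belong to a pair with a peak; a pair's peak counts for both of its genes, so a count says nothing about which of the 2 it serves. Grouped over 12 lists of such machinery (the ribosome, translation, proteasome, chaperonin, vacuolar ATPase, respiration, splicing, nuclear pore and Mediator), pairs with no gene in any list held a peak in 585 of 3156 cases (18.5%). Pairs with 1 such gene did in 114 of 203 (56.2%, exact 95% interval 49.0 to 63.1%) and pairs with 2 in 7 of 9. The replicates gave 55.2% and 53.2% for pairs with 1 such gene, and 18.1% and 17.8% for pairs with none. Pairs with such a gene are closer together, with a median of 519 bp against 1003.5 bp. Among pairs over 200 and up to 1000 bp apart the shares were 64.9% with 1 such gene and 24.4% with none, so the difference was as large at similar separation. Outside eligible pairs, genes of most of these lists also had upstream peaks more often than all genes there, as given below. The difference was thus not particular to divergent pairs.

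Ribosomal protein genes stood at the top. Of the 30 genes of the large subunit in eligible pairs 26 had a peak (86.7%, exact 95% interval 69.3 to 96.2%), as did 19 of the 21 of the small subunit (90.5%). Their peaks were tall, with median signals of 173.3 and 163.2, beside 89.0 over all genes of pairs with a peak. rpl-15 led the large subunit, followed by rpl-20 (247.7 in replicate 1, 252.7 in replicate 2) and rpl-12 (224.6 and 222.1), and rps-1 and rps-12 led the small one, followed by rps-19 (237.6 and 247.5). rla-2, rpl-11.1, rpl-41.1 and rpl-42 had none in the large subunit, and rps-18 and rps-24 none in the small one. The summit was nearer the ribosomal gene in 9 of 26 pairs of the large subunit and 8 of 19 of the small one. Median distances to the ribosomal gene and to the partner were 298.5 and 247.5 bp for the large subunit. For the small one they were 270 and 243 bp. rps-10/rpl-24.1, rps-14/rpl-36 and rpl-39/rps-30 are counted in both lists, and there the partner is itself a ribosomal gene. Of all 13237 genes outside eligible pairs, 1832 (13.8%) had an upstream peak. Of the ribosomal protein genes there, 16 of 20 and 9 of 10 had an upstream peak, close to the shares in divergent pairs.

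Pairs in which both genes belonged to these lists included rps-10/rpl-24.1 (pooled signal 232.5), rps-14/rpl-36 (224.8), rpl-28/mrpl-49 (173.3) and rpl-39/rps-30 (163.2), which place a single summit between the genes of 2 ribosomal proteins. rpl-36.A/nuo-1, rps-9/lsm-1 and pbs-2/eif-6 also held a peak. mrps-6/rpn-8 and npp-25/mrps-10 did not.

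The other lists of translation and protein handling lay between the ribosomal proteins and the background. The exact 95% interval included the background of 21.0% for mitochondrial ribosomal proteins, and lay above it for the other lists here. Of 23 translation factor genes 13 had a peak (56.5%), led by iff-2, eef-1G and eef-1A.1, and outside eligible pairs 9 of 18 had an upstream peak (50%). Of 16 aminoacyl-tRNA synthetase genes 8 did (exact 95% interval 24.7 to 75.3%), led by aars-1 (74.4 in replicate 1, 63.9 in replicate 2). Outside eligible pairs 2 of 16 synthetase genes had an upstream peak (12.5%), beside 13.8% of all genes there. Mitochondrial ribosomal proteins had a lower share than the cytosolic ones, 12 of 33 (36.4%, exact 95% interval 20.4 to 54.9%), led by mrps-7 (108.4 and 92.4), and outside eligible pairs 6 of 37 had an upstream peak (16.2%), close to the 13.8% of all genes there. For proteasome subunits it was 11 of 23 (47.8%), led by rpn-3, whose partner hsp-110 encodes a chaperone (127.2 and 115.1). For the CCT chaperonin, which folds actin and tubulin, it was 6 of 8, led by cct-1 and cct-8; cct-1 shares its summit with the Dishevelled gene mig-5 (130.9 and 89.0).

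Shares for respiration, splicing, the nuclear pore, Mediator and the vacuolar ATPase were in the same range, but not all were set apart from the background. Respiratory chain and ATP synthase genes had a peak in 11 of 21 cases (52.4%), led by cox-5B, a subunit of cytochrome oxidase (139.6 in replicate 1, 171.9 in replicate 2). Sm and LSm genes of the spliceosome did in 7 of 10, nucleoporin genes in 8 of 19, led by npp-3 (113.7 and 155.9), Mediator genes in 4 of 9 and vacuolar ATPase genes in 3 of 8, led by vha-8 (164.2 and 158.3). The exact 95% intervals for nucleoporin (20.3 to 66.5%), Mediator (13.7 to 78.8%) and vacuolar ATPase genes (8.52 to 75.5%) included the background of 21.0%. Those for respiratory (29.8 to 74.3%) and Sm and LSm genes (34.8 to 93.3%) lay above it. The Mediator count was 2 of 9 (22.2%) in replicate 1, near the background, and 4 of 9 in replicate 2. For vacuolar ATPase and proteasome genes outside eligible pairs the shares were higher, 10 of 13 (76.9%) and 7 of 10. Respiratory genes there had an upstream peak in 10 of 18 cases (55.6%) and nucleoporin genes in 4 of 7 (57.1%). Sm and LSm genes did in 3 of 5 and Mediator genes in 7 of 17 (41.2%), beside 13.8% of all genes there.

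**Figure D4:**
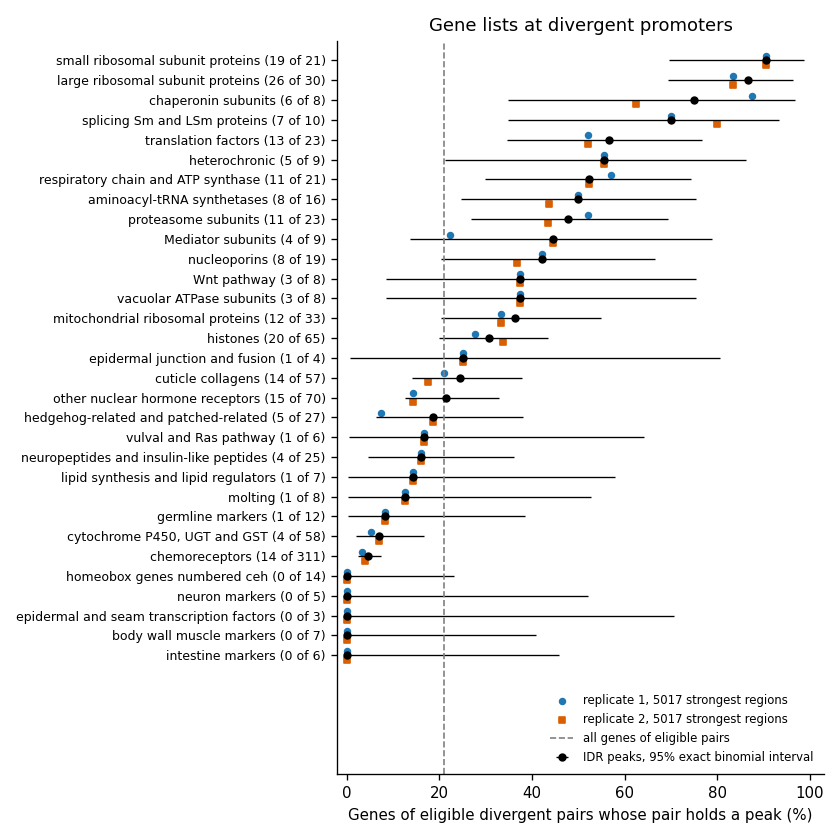
Genes of eligible divergent pairs whose pair holds a peak (%) for 31 gene lists, with counts in the labels; black points and lines are IDR peaks with exact binomial 95% intervals, blue and orange points the 5017 strongest regions of replicates 1 and 2, and the dashed line is the share of all genes of eligible pairs, 21.0%. Ribosomal proteins stand highest at 90.5% and 86.7% and chemoreceptors near 0 at 4.50%. Intervals count genes singly, though 2 listed genes of a pair share 1 outcome.

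Histone genes split by whether their sequence is unique. Histone genes are arranged largely as divergent pairs in this worm, and 65 of the 72 were in eligible pairs; 20 of the 65 had a peak (30.8%), in 11 pairs. Among the 31 pairs made of 2 histone genes 9 had one. The strongest was at his-67/his-68 (122.2 in replicate 1, 181.4 in replicate 2), then his-31/his-32 (90.7 and 121.5), his-4/his-3 (97.7 and 95.9) and his-60/his-59 (94.9 and 74.7). Of the 31 pairs, 20 lie in sequence of which at least 50% of the 50-base words occur again elsewhere in the genome, and none of these 20 had a region even in the pooled list of 30000. All 11 pairs below that level had one, and 9 of these reached the IDR list; his-8/his-7 and his-38/his-40 did not. Over all eligible pairs long enough to be measured, 3 of those at or above that level held an IDR peak (2.52%) and 703 of 3213 below it (21.9%). Reads from repeated DNA cannot be placed at 1 copy, and the authors' treatment of such reads was not given in the sources used here, so repeated pairs with and without binding cannot be told apart.

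**Figure D5:**
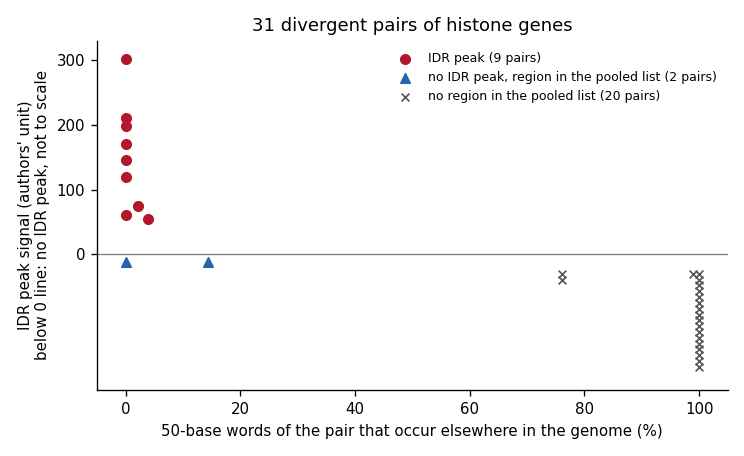
Pooled signal of the IDR peak (authors' unit) of 31 divergent histone gene pairs against the share of their 50-base words found elsewhere in the genome (%); pairs with no IDR peak are drawn below the 0 line, not to scale. The 9 pairs with a peak are all in unique or nearly unique sequence, and the 20 pairs with no region in the pooled list are at the repeated end.

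The 2 printed histone pairs share a run of 18 bases, which ends 1 base before the summit of his-4/his-3 and spans that of his-60/his-59. It was found in none of the other eligible pairs. Its inner part GGGGACAC, chosen after the sequences were compared, stood on either strand in 21 of the 31 histone pairs, of which 16 are repeated pairs with near-identical copies, and in 5 of the 9 with a peak. It stood in 33 of the 3337 other eligible pairs (0.99%) and in none of the 691 of them that are at most 400 bp apart, the range of the histone pairs, whose widest is 368 bp. The match is of letters only.

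Cuticle collagen genes, which build the exoskeleton that is remade at each molt, had member peaks about as often as the background. Of 57 in eligible pairs 14 had one (24.6%, exact 95% interval 14.1 to 37.8%), or 21.1% in replicate 1 and 17.5% in replicate 2. They were led by col-38, whose partner is rpl-5 (104.6 in replicate 1, 111.05 in replicate 2), and by col-117 and col-3, which share a peak (85.0 and 75.6) with a half-site. Outside eligible pairs 30 collagen genes had an upstream peak (25.2%), beside 13.8% of all genes there. Other nuclear hormone receptor genes were also at the background, with 15 of 70 (21.4%) in the IDR list and 10 of 70 (14.3%) in either replicate alone. The strongest were nhr-86 (80.6 and 134.0), nhr-68 (98.3 and 114.8) and nhr-47 (87.3 and 105.1). Hedgehog-related and patched-related genes had 5 of 27, led by grl-17 (92.3 and 144.5), but the top regions of replicate 1 gave 2 of 27 (7.41%) and those of replicate 2 gave 5 (18.5%).

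Lists of developmental pathways differed in how many of their genes were in eligible pairs, beside 33.7% of all genes. Of 21 heterochronic genes, which time development, 9 were (42.9%), and 5 of the 9 had a peak (55.6%, exact 95% interval 21.2 to 86.3%): after puf-9 and nhl-2 came let-70, an E2 ubiquitin-conjugating enzyme gene, whose signal differed between the samples (53.7 in replicate 1, 187.7 in replicate 2), and lin-28, an RNA-binding repressor of let-7 microRNA (65.4 and 53.8). For the Wnt list it was 8 of 31 genes (25.8%), for the vulval and Ras list 6 of 33 (18.2%) and for epidermal junctions 4 of 21 (19.05%). Of the 8 Wnt pathway genes mig-5, apr-1, an APC-related gene (97.4 and 61.4), and mom-1 (22.98 and 29.7) had one. let-60, the Ras gene, was the only one of the 6 vulval and Ras pathway genes (60.7 and 84.8), and hmp-1, the alpha-catenin gene, the only one of the 4 junction genes (32.2 and 61.9). Outside eligible pairs, 7 of 12 heterochronic genes (58.3%) and 8 of 17 junction genes (47.1%) had an upstream peak, beside 13.8% of all genes there. For Wnt genes it was 6 of 23 (26.1%), and for vulval and Ras genes 8 of 27 (29.6%).

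Genes of the receptor's best-known roles had few members among the divergent pairs. Of 38 molting genes 8 were in eligible pairs (21.1%, beside 33.7% of all genes), and rme-8, an endocytosis gene, alone had a peak (22.4 in replicate 1, 27.8 in replicate 2); of the other 30, 17 had an upstream peak (56.7%, beside 13.8% of all genes outside eligible pairs). Of 18 epidermal and seam transcription factor genes 3 were in eligible pairs and none had a peak, while 6 of the other 15 had an upstream peak. nhr-25, nhr-23, blmp-1 and unc-119 were in no pair with a member peak. By the rule this holds for any gene outside eligible pairs, so it does not show whether a peak lay upstream of them. Molting genes in eligible pairs were far apart, with a median of 3052.5 bp between the 5′ ends, where the share of all pairs was 9.03%.

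Chemoreceptor, detoxification and neuropeptide gene families were at or below the background. Chemoreceptor genes of the families whose names begin with sr, used mainly in sensory neurons, had a peak in 14 of 311 cases (4.50%, exact 95% interval 2.48 to 7.44%), and in 3.22% and 3.86% in replicates 1 and 2. This interval counts genes singly, though 2 genes of a pair share 1 outcome, and is therefore too narrow. The strongest was that of srt-11 (89.3 in replicate 1, 74.6 in replicate 2), and in 10 of the 14 the summit was nearer the partner gene. None of the 49 pairs made of 2 such genes held a peak; the str family of chemoreceptors is not in the list, and pairs of an sr and a str gene are not among the 49. Cytochrome P450, UGT and GST genes, which detoxify, had 4 of 58 (6.90%), and neuropeptide and insulin-like genes 4 of 25, led by the taller summit of nlp-34/nlp-31 (95.7 and 80.6), which encode antimicrobial peptides.

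Markers of single tissues, ceh homeobox genes and lipid genes were nearly all without member peaks. None of 14 ceh homeobox genes, 6 intestine markers, 7 body wall muscle markers and 5 neuron markers in eligible pairs had one; counts of 0 this small allow shares of up to 23.2%, 45.9%, 41.0% and 52.2% (upper exact 95% limits). Of 12 germline genes only nos-3 did (100.8 in replicate 1, 57.3 in replicate 2), and of 7 lipid genes only nhr-80 (33.3 and 15.7). Median separations in eligible pairs were 2412 bp for muscle and 2720 bp for neuron markers, a range where 9.03% of all pairs held a peak. For intestine and germline genes they were 1215.5 and 264.5 bp. Outside eligible pairs, where 13.8% of all genes had an upstream peak, the counts were 0 of 10 for intestine, 1 of 11 for muscle, 1 of 14 for neuron and 0 of 6 for germline genes, too small to be set apart from that share. There, 5 of 49 ceh genes (10.2%) and 5 of 19 lipid genes (26.3%) had one.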

How the data were processed

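Peak lists from ChIP-seq of 2 samples of 1 group were used on ce11. Per the deposited index text, the authors called regions in each replicate and on pooled reads against a control alignment (30000 regions per list), and derived the IDR list of 5017 peaks from these. The deposited signal is the authors' height per region; the deposited q-value, as −log10, stood at its ceiling of 3.86 in 78.8% of the members and was not used. The sources used here do not name the aligner or the peak caller, nor their settings. Depth per sample is unknown, so intervals cover counting only. Control lists and read counts were not used here. No per-sample column lacked a sample.

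Genes came from Ensembl release 115 for WBcel235 and sequence from the RefSeq genome of the same build. The genes with 5′ ends next to each other on a chromosome, − strand first and + strand second, formed a pair; nuclear protein-coding genes only were used. Summits were matched between lists within 100 bp, and the 5017 regions of highest signal stood for each replicate. Words were counted within 100 bp of summits. The chromosome names and lengths of the lists and the genome were compared before use. The scripts were tested on simulated data, with Python 3.11.15, pandas 2.3.3, NumPy 2.4.6, SciPy 1.17.1 and matplotlib 3.10.9.

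Intervals are exact binomial (Clopper-Pearson) at 95%. For gene lists they count genes singly, so they are too narrow where both genes of a pair are in the list. Named genes were those of the 10 strongest members, the 2 strongest per separation class, up to 3 genes per list with the strongest peak and the first 2 without, pairs with both genes in a list, members with TCAAGGTCA, the pairs with most summits, the 3 most unequal peaks in each direction and those beside the 2000 bp limit. Of genes without a peak, all were named for the ribosomal lists and none for most others. The members, the 31 gene lists and the words were chosen with earlier results of these data known. The name pattern of the chemoreceptor list was narrowed after values were seen, because it took genes of unrelated families. The repeated-sequence measure, the share of 50-base words of a pair found elsewhere in the genome on either strand, was also added after values were seen.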

Additional observations from a re-analysis of the deposited data

How the results depend on the processing

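Under 15 alternatives, 31 of 86 recomputed values moved by less than the SD between the 2 single-replicate values (for the count of members, by less than 1.5 times) and 55 moved by more; that SD is small, and 0 for 3 gene lists. The number of members was 448 with the stronger part of the IDR list, 1118 with 2 times as many peaks from the pooled list and 364 with a limit of 500 bp. In the same order, the share of pairs with a peak was 13.0%, 29.96% and 20.8%, the density ratio to other upstream sequence 2.92, 2.11 and 4.38, the ratio of median signal to all other peaks 1.12, 1.48 and 1.16, the share with a half-site 3.13%, 3.49% and 3.30%, and the median distance to the nearer 5′ end 181.0, 171.5 and 130.0 bp. With a limit of 1000 bp the share of pairs was 20.1%, the density ratio 3.21, the half-site share 3.07% and the distance 144.0 bp. Pairs with no coding gene body between them gave 21.4% and a density ratio of 2.59. Those with no non-coding gene gave 20.5%, a density ratio of 2.44, a signal ratio of 1.11, a half-site share of 3.46% and 155.0 bp. With the coding start as 5′ end the values were 22.4%, a density ratio of 2.46 and 209.0 bp. The share among the top of both replicates was 96.7% in the stronger part of the list, 72.9% and 80.3% with matching within 50 and 200 bp, and 69.4% by overlap of regions. A half-site stood in 2.16% and 4.45% of windows of 50 and 150 bp to each side, and TCAAGGTCA in 0.27%. A limit of 500 bp gave 79.3% of large and 78.9% of small ribosomal subunit genes, 35.0% of collagens, 3.70% of chemoreceptors and 22.2% of other nuclear receptors. The cause of these changes was not tested, apart from the fewer or more peaks and pairs that an alternative leaves by construction.

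Leaving out each replicate in turn gave 715 to 734 members, 20.1 to 20.5% of pairs, density ratios of 2.48 to 2.53, signal ratios of 1.12 to 1.19, 79.2 to 81.7% of members among the top of the replicate left out, half-sites at 3.27 to 3.78% and distances of 171.0 to 176.5 bp. It gave 83.3% of large and 90.5% of small ribosomal subunit genes in both cases, 27.7 to 33.8% of histones, 17.5 to 21.1% of collagens, 3.22 to 3.86% of chemoreceptors and 14.3% of other nuclear receptors in both cases. The background of all genes in eligible pairs was 21.0% in the IDR list, 20.5% in replicate 1 and 20.1% in replicate 2. Collagens, above it in the IDR list, were just above it in replicate 1 (21.1%) and below it in replicate 2 (17.5%). Other nuclear receptors were just above it in the IDR list and below it in both replicates. No paired analysis was possible because there is a single group. Depth is unknown, so the absence of a peak cannot be set against the number of reads, and weak members, near the end of the list, are the least reproducible.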
